A study of Mus musculus with 112 samples.

Results

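The 34 genes described here are interferon-stimulated genes (ISGs), listed by name as genes known to be induced by interferons, with earlier results of these data known when the list was made. All 34 were found among the 25209 genes counted in each of 112 RNA-seq libraries of mouse cells. They comprised 4 transcription factors of the interferon pathway (Stat2, Irf1, Irf7 and Irf9), 5 RNA and DNA sensors (Ifih1, Ddx58, Dhx58, Zbp1 and Eif2ak2), 4 genes of the ISG15 system (Isg15, Usp18, Ube2l6 and Trim25), 5 genes of the OAS family, 3 of the IFIT family, 6 antiviral effectors (Mx1, Mx2, Rsad2, Bst2, Samd9l and Cmpk2), 4 genes of the PARP and DTX3L group, and Ifi35, Ifi44 and Xaf1.

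The study asked what the histone demethylase LSD1 (gene Kdm1a) and its partners do for gene expression and differentiation of embryonic stem cells (ESCs). All cells derived from the V6.5 mouse ESC line. Undifferentiated ESCs were grown without serum in N2B27 medium with inhibitors of MEK and GSK (2i) and with LIF. Compared with wild type (WT) were LSD1 KO cells (promoter and first exon deleted with CRISPR/Cas9), LSD1 CI cells (endogenous LSD1 mutated to be catalytically inactive), knockouts of the CoREST scaffold genes Rcor2 (RCOR2 KO), Rcor1 (RCOR1 KO) or both (RCOR1/2 DKO), a knockout of the histone methyltransferase MLL4 (MLL4 KO, gene Kmt2d), and MLL4 KO combined with LSD1 deletion (MLL4/LSD1 DKO) or inactivation (MLL4KO/LSD1CI). In LSD1Res cells, which are LSD1 KO cells, and in DKO+LSD1 cells, which are RCOR1/2 DKO cells, doxycycline (DOX) switched on an LSD1 transgene, and LSD1 KO cells with and without DOX but no transgene served as its control. LSD1 KO cells were also given A485, an inhibitor of the acetyltransferases P300 and CBP, or its solvent DMSO. A485 was used at 10 µM for 24 h in ESCs and at 0.4 µM in EBs, and its dose in the other states is not given in the sources used here. Besides ESCs there were embryoid bodies (EBs) formed as hanging drops for 6 days, cells that differentiated for 4 days after 2i and LIF were withdrawn (called serum here), and epiblast-like cells (EpiLCs) made with Activin A and FGF2 for 2 days. The EBs were kept in the same medium with serum as the cells called serum here. Every serum and EpiLC library, WT and LSD1 CI included, and 2 of the WT EB libraries were given DMSO, or A485 in its place. Mutant lines were individually picked clones, and the paper states that its RNA-seq experiments drew on 2 independent clones. The labels number the libraries of a group without saying which clone or culture each came from. In RCOR2 KO ESCs, replicates 1 and 3 and replicates 2 and 4 were close pairs. Their mean squared differences per gene were 6.74 and 5.27 times sampling variance, against 27.8 to 30.8 for other pairs. LSD1 CI and MLL4KO/LSD1CI ESCs split likewise, and RCOR1 KO ESCs did not. In RCOR1/2 DKO ESCs the close pairs were replicates 1 and 2 and replicates 3 and 4. The same held for LSD1Res ESCs without and with DOX and for DKO+LSD1 ESCs with DOX. The p-values below measure the spread between these libraries, which may not be independent, and leaving out 1 library keeps the other of its pair.

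Interferons bind receptors at the cell surface, which activate JAK kinases, and these phosphorylate STAT proteins. Together with IRF9 the STATs enter the nucleus and bind interferon-stimulated response elements in the promoters of ISGs, whose products sense viral nucleic acid, degrade it, or block viral entry, replication and budding. Pluripotent cells are known to make little interferon and to respond weakly to it, and they keep some ISGs expressed at a steady level without it.

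Promoters are shown for 6 members to let their upstream sequence be read beside their expression. Ube2l6, Dtx3l and Parp12 are shown because they rose in several mutants and hold neither of the 2 motifs searched, Bst2 and Oas1a because they hold both, and Isg15 because it holds several overlapping copies of one of them. The motifs, searched on both strands, were GAAANNGAA, the core of the interferon-stimulated response element, and TTCNNNGAA, the core of the gamma-activated site that STAT dimers bind, and matches are in capitals. In Bst2, Oas1a and Isg15 neighbouring matches overlap each other. Each sequence is the 250 bases before the gene's start, 5′ to 3′ on the gene's strand, from RefSeq (GRCm38.p6), a later build than the mm9 used for the counts.

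Ube2l6: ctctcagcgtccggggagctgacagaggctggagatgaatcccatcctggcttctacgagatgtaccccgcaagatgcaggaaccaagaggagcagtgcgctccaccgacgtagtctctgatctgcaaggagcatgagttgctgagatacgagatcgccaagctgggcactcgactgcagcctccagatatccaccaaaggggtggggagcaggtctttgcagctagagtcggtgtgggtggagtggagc
Dtx3l: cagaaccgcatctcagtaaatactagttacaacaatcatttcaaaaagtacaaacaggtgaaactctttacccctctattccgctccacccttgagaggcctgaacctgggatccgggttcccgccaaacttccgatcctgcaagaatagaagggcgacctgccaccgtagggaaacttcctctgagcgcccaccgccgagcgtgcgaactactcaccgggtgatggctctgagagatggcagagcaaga
Parp12: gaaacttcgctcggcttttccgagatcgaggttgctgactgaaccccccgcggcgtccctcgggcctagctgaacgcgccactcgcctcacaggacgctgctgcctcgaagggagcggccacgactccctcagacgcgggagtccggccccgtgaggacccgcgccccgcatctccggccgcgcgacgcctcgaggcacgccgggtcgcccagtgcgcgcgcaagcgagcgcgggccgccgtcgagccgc
Bst2: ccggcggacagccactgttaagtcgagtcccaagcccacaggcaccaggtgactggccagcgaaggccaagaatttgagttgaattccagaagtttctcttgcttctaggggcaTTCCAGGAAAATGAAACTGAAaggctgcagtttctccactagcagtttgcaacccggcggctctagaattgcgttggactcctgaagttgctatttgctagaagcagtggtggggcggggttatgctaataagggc
Oas1a: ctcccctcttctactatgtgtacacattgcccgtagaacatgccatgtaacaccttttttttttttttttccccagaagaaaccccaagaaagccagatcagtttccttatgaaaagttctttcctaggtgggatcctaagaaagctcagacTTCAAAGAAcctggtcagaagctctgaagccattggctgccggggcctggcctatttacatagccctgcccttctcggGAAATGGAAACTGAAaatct
Isg15: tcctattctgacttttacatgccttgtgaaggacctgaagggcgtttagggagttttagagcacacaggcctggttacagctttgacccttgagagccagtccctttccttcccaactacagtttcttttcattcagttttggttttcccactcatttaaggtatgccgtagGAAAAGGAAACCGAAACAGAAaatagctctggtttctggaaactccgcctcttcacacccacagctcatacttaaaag

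These stretches lie at chr2:84798578-84798827, plus strand (Ube2l6), chr16:35939028-35939277, minus strand (Dtx3l), chr6:39118350-39118599, minus strand (Parp12), chr8:71537473-71537722, minus strand (Bst2), chr5:120907526-120907775, minus strand (Oas1a) and chr4:156200819-156201068, minus strand (Isg15). Over windows of 300 bases, from 250 before to 50 after the start, 26 of the 34 members had an entry. Of these, 14 (53.8%) held GAAANNGAA, against 9.76% of all 27025 genes with a window, and 6 (23.1%) held TTCNNNGAA, against 9.55%. Both were present in 3 members, and 9 held neither (Irf7, Irf9, Oasl1, Oasl2, Parp12, Dtx3l, Ube2l6, Xaf1 and Cmpk2), which says only that these letters are not in this window. The Parp12 window had the most CpG dinucleotides of the 6 shown, 46, at 73.7% GC, and Oas1a the fewest, 3, at 46.7% GC, against medians of 7.0 and 52.7% over all windows.

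Libraries held 17221431 to 58186717 counts, and levels are given below as CPM, the counts of a gene per 1000000 counts of its library. Targeted genes were checked first. Kdm1a lay at 141 to 226 CPM in WT ESCs and at 3.43 to 6.85 CPM in LSD1 KO ESCs, and Rcor2 at 87.5 to 104 CPM (median 97.4) in WT ESCs, 1.34, 4.01, 0.674 and 4.46 CPM in RCOR2 KO ESCs and 3.09, 3.53, 3.67 and 2.55 CPM in RCOR1/2 DKO ESCs. In the 2 libraries labelled RCOR2 KO EB, however, Rcor2 still stood at 53.8 and 44.6 CPM, against 121 to 153 CPM (median 133) in WT EBs, so they are called by their label throughout. Kmt2d reads remained in MLL4 KO ESCs, at 222 and 228 CPM against 307 to 746 CPM (median 488) in WT ESCs. In 9 libraries, WT ESC replicates 1 to 3 and all 6 of LSD1 KO ESCs, no read was assigned to 101 genes that lie only on unplaced contigs, while every other library had at least 4241 such counts, so these 9 appear to have been aligned or counted separately. The 5 pluripotency markers summed to 1780 to 2350 CPM in WT ESCs. The 7 macrophage and blood markers summed to 3.11 to 21.8 CPM over all 34 groups, and Tyrobp was at 0 in every WT ESC library.

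In WT ESCs the members spanned a wide range of levels. Per kilobase of exon, Trim25, a ubiquitin ligase that acts on the sensor RIG-I, was highest at a mean of 29.0 CPM per kb, followed by Bst2 (tetherin, which holds budding virions at the membrane) at 22.4, Stat2 at 11.3, Irf1 at 9.50 and Eif2ak2 (PKR, a kinase activated by double-stranded RNA) at 7.72 CPM per kb. At the other end Ifih1, the sensor MDA5, averaged 0.0255 CPM per kb and Usp18, which removes ISG15 from proteins, 0.0172 CPM per kb, and Ifi44 had no count in any of the 11 WT ESC libraries. Across the 34 groups, 3 members (Ifit3, Ifi44 and Mx1) never reached a group mean of 1 CPM, whereas 11 stood at 1 CPM or more in all 112 libraries (Stat2, Irf1, Irf9, Ddx58, Bst2, Parp9, Parp12, Parp14, Dtx3l, Trim25 and Eif2ak2). The WT ESC libraries were not uniform: Samd9l read 1.66 to 11.8 CPM (median 3.68) with replicates 10 and 11 highest, and Irf7 was at or below 0.0532 CPM in 7 of the 11 libraries and between 0.748 and 2.497 CPM in replicates 6, 7, 10 and 11.

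**Figure D1:**
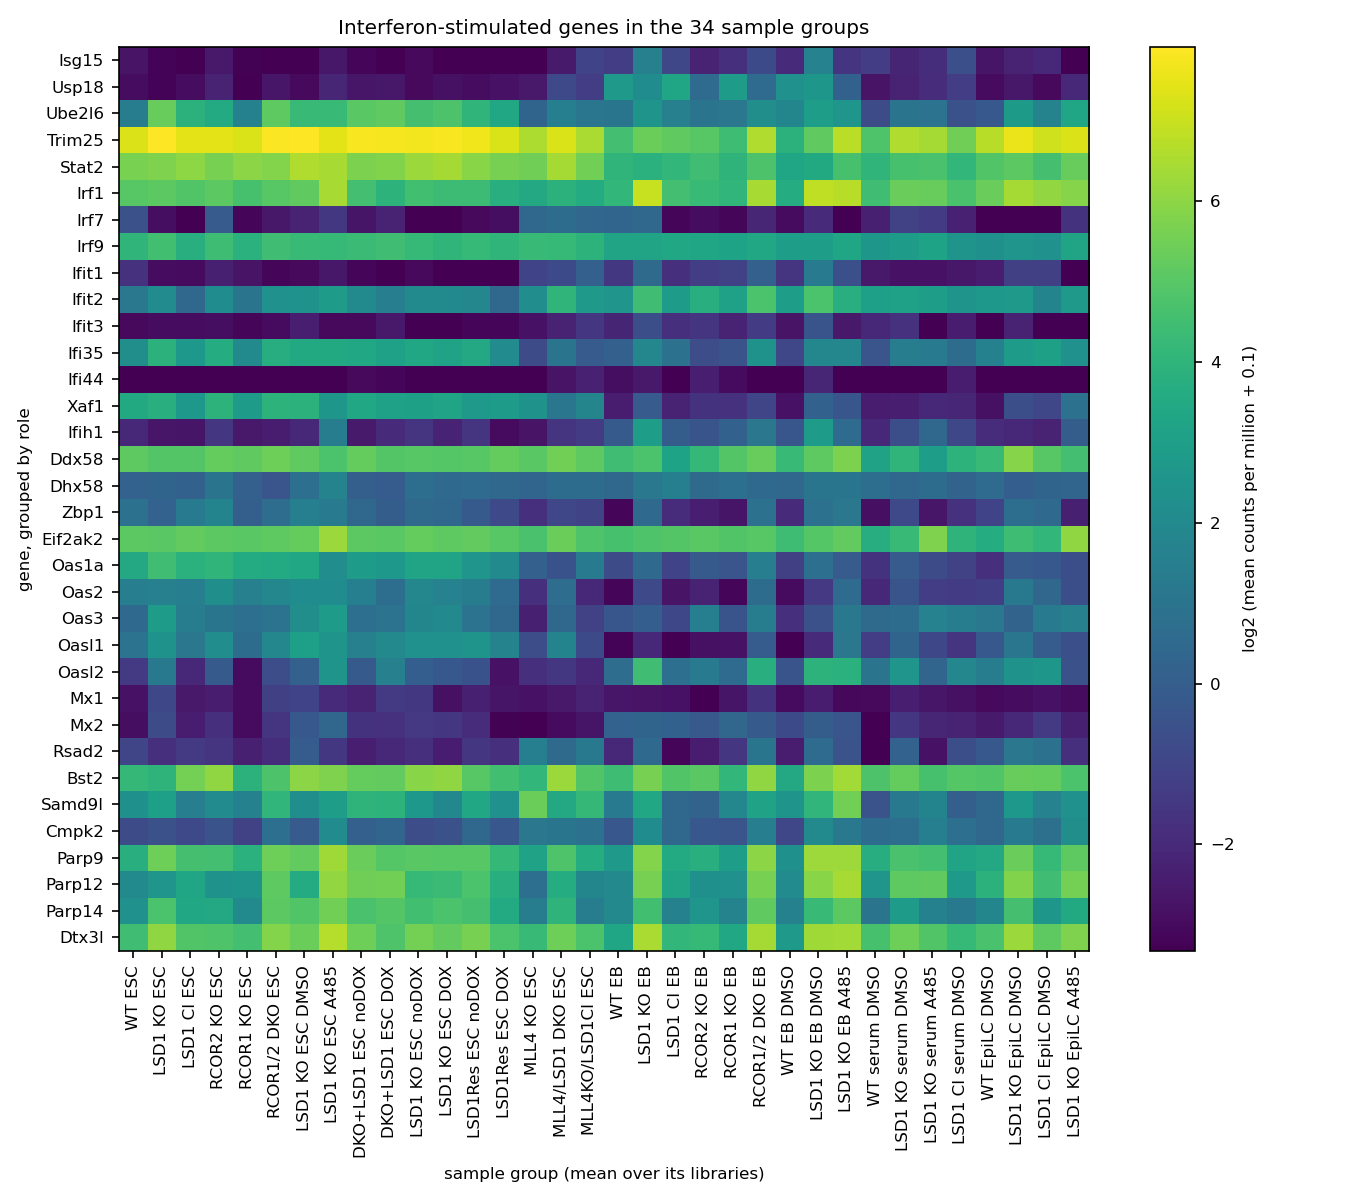
Mean level of each of the 34 members (rows, grouped by role) in each of the 34 sample groups (columns), as log2(CPM + 0.1), with darker or lighter cells by the colour bar. Trim25, Stat2, Irf1, Ddx58 and Eif2ak2 were high in ESC groups, while Ifi44, Mx1 and Ifit3 stayed below 1 CPM in every group mean.

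More members fell than rose when WT cells differentiated into EBs. Against WT ESCs, 5 of the 29 members tested rose and 13 fell at the thresholds used here, an adjusted p below 0.01 and more than 2-fold, where 20.6% of all genes tested rose and 15.5% fell. Trim25 went from 140.1 to 183 CPM (median 162) in WT ESCs to 9.96 to 37.5 CPM (median 26.7) in WT EBs (log2 fold change -2.96, SE 0.21, adjusted p = 1.19e-10), and Oas1a, which makes the activator of RNase L, from 7.48 to 15.8 CPM (median 10.4) to 0.122 to 1.33 CPM (median 0.399) (log2 fold change -4.56, SE 0.37, adjusted p = 7.17e-10). Neither gene's ranges overlapped. Usp18 went the other way, with no count in 9 of 11 WT ESC libraries and 3.21 to 10.99 CPM (median 6.20) in WT EBs (log2 fold change 8.13, SE 0.76, adjusted p = 6.94e-09). Oas2, Oasl1, Zbp1 and Xaf1 also fell, to at most 0.36 CPM in any WT EB library, as did Stat2, Irf1, Irf9, Ifi35, Parp9, Dtx3l and Samd9l by 1.00 to 2.44 on the log2 scale. Mx2, Ifih1, Oasl2 and Ifit2 rose. In bulk RNA, fewer cells of a type and less RNA per cell cannot be told apart, and the WT EBs summed to 18.3 to 189 CPM over the pluripotency markers and 95.0 to 139 CPM over the 5 visceral endoderm markers (WT ESCs at most 0.816), whose part in these differences was not tested.

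RCOR2 KO ESCs had 6 of 32 members tested higher than in WT and none lower, namely Bst2, Ifi35, Parp14, Oasl1, Ifit2 and Ube2l6. Of all genes tested, 2.33% rose and 1.52% fell. The median log2 fold change was 0.674 over the members tested and -0.0107 over all genes, and 29 members had a higher and 3 a lower fitted level. Bst2 read 6.13 to 29.8 CPM (median 16.6) in the 11 WT ESC libraries and 74.8, 53.5, 79.5 and 55.7 CPM in the 4 RCOR2 KO libraries (log2 fold change 1.93, SE 0.19, adjusted p = 2.14e-09). Every RCOR2 KO library lay above every WT library, with replicates 1 and 3 above replicates 2 and 4. Ifi35, an interferon-induced leucine zipper protein, read 2.02 to 6.74 CPM (median 4.63) in WT and 10.7, 14.3, 11.9 and 12.9 CPM in RCOR2 KO ESCs (log2 fold change 1.47, SE 0.20, adjusted p = 6.78e-07). Oasl1, an OAS-like protein that binds RNA, read 0.813 to 2.94 CPM (median 1.80) and 4.08, 4.76, 4.25 and 4.48 CPM (log2 fold change 1.29, SE 0.25, adjusted p = 0.000209). Parp14, a mono-ADP-ribosyltransferase, read 1.85 to 8.42 CPM (median 5.13) and 9.49, 11.7, 10.5 and 11.8 CPM (log2 fold change 1.21, SE 0.19, adjusted p = 1.59e-05), and these 3 genes also had no overlap between the groups.

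The other 2 calls in RCOR2 KO ESCs were less even. Ube2l6, the conjugating enzyme that hands ISG15 to its targets, split the RCOR2 KO libraries, with 19.3, 3.56, 20.3 and 2.71 CPM against 0.426 to 5.95 CPM (median 2.51) in WT (log2 fold change 2.20, SE 0.48, adjusted p = 0.000965). Replicates 2 and 4 lay inside the WT range, and without replicate 1 or without replicate 3 the call was lost (log2 fold change 1.81, adjusted p = 0.0162 and 1.79, adjusted p = 0.0173). Ifit2, an RNA-binding protein that inhibits translation, read 4.77, 5.09, 4.36 and 3.32 CPM against 1.31 to 3.38 CPM (median 1.86) (log2 fold change 1.07, SE 0.21, adjusted p = 0.000257), with one RCOR2 KO library inside the WT range, and without replicate 2 it stood at 0.999 on the log2 scale, just under the threshold. Some calls depended on which WT libraries were used. With only WT replicates 6 and 7 as WT, Oasl1 stood at 0.954 (adjusted p = 0.107), Ifit2 at 1.15 (adjusted p = 0.0267) and Ube2l6 at 2.34 (adjusted p = 0.0985), and none of these 3 was called. With only WT replicates 10 and 11, Parp14 stood at 0.583 (adjusted p = 0.0222), Ifit2 at 0.736 (adjusted p = 0.0683) and Ube2l6 at 2.21 (adjusted p = 0.0405). Parp9, which forms a complex with Dtx3l, had a log2 fold change of 0.91 (SE 0.096, adjusted p = 4.24e-09), with 24.6, 20.2, 26.6 and 21.5 CPM against 9.92 to 15.3 CPM (median 12.8), below the 2-fold threshold although no library overlapped. Against WT replicates 6 and 7 alone Parp9 stood at 1.05 (adjusted p = 3.25e-05) and was called. It was not called against replicates 4, 5, 8 and 9 alone (0.933) or against replicates 10 and 11 alone (0.849).

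In RCOR1 KO ESCs no member passed the thresholds. None of 32 was called by edgeR, where 0.0568% of all genes rose and 0.0852% fell, 9 members had an unadjusted p below 0.05, as did 28.2% of all genes tested, and DESeq2 called 2, both lower. Bst2 read 13.5, 15.5, 13.6 and 17.1 CPM, Ifi35 3.67, 3.97, 3.71 and 4.87 CPM and Parp14 4.00, 4.92, 2.58 and 4.30 CPM in RCOR1 KO ESCs, all within the WT range, and the median log2 fold change over the members was -0.343.

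Loss of both scaffolds raised 10 of 32 members and lowered none, and all 4 genes of the PARP and DTX3L group were among them. The background was 11.3% of all genes higher and 6.32% lower, and the median over the members tested was 0.352 on the log2 scale. Parp12, a mono-ADP-ribosyltransferase that binds RNA, read 33.2, 31.5, 40.4 and 34.9 CPM in RCOR1/2 DKO ESCs, 5.05, 6.09, 3.63 and 6.98 CPM in RCOR2 KO ESCs and 2.47 to 6.02 CPM (median 3.79) in WT ESCs (DKO against WT log2 fold change 3.03, SE 0.16, adjusted p = 6.67e-19). Parp14 read 32.3, 34.5, 32.9 and 34.1 CPM (log2 fold change 2.62, SE 0.19, adjusted p = 5.42e-15). Parp9 read 40.9, 41.7, 43.5 and 46.6 CPM (log2 fold change 1.59, SE 0.093, adjusted p = 1.42e-17). Dtx3l, an E3 ubiquitin ligase, read 58.0, 57.4, 54.4 and 57.9 CPM against 16.2 to 35.9 CPM (median 21.1) in WT (log2 fold change 1.21, SE 0.12, adjusted p = 5.33e-11). All RCOR1/2 DKO libraries exceeded all WT libraries for these 4 genes. Ube2l6 read 29.1, 32.5, 37.2 and 41.4 CPM (log2 fold change 3.59, SE 0.47, adjusted p = 7.86e-08), with every library above the WT range. Also higher were Samd9l, Cmpk2 (a nucleotide kinase of mitochondria), Ifi35 and Ifit2, with log2 fold changes of 1.66, 1.47, 1.27 and 1.08, and Mx1 rose with overlapping ranges and below 1 CPM, a call lost without replicate 1, 2 or 4. The 5 fibroblast markers summed to 2.27 to 6.08 CPM in WT, 2.94 to 11.8 in RCOR2 KO, 34.8 to 44.7 in RCOR1/2 DKO and 17.4 to 24.8 in LSD1 KO ESCs, and the 5 endothelial markers to 69.0 to 124, 80.4 to 101, 154 to 166 and 177 to 203 CPM. The part of these markers in the results was not tested.

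Set directly against RCOR2 KO ESCs, the RCOR1/2 DKO ESCs had 3 members higher and 2 lower of 32 (background 7.91% higher and 7.0% lower). Parp12 (log2 fold change 2.47, SE 0.22, adjusted p = 1.67e-11), Parp14 (log2 fold change 1.41, SE 0.25, adjusted p = 1.58e-05) and Samd9l (log2 fold change 1.77, SE 0.42, adjusted p = 0.000908) were higher in the double knockout. Bst2 was lower, at 24.7, 28.9, 30.6 and 25.9 CPM (log2 fold change -1.47, SE 0.26, adjusted p = 1.62e-05), as was Dhx58, a sensor of the RIG-I family (log2 fold change -1.70, SE 0.42, adjusted p = 0.00129). None of these 5 overlapped between the groups.

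**Figure D2:**
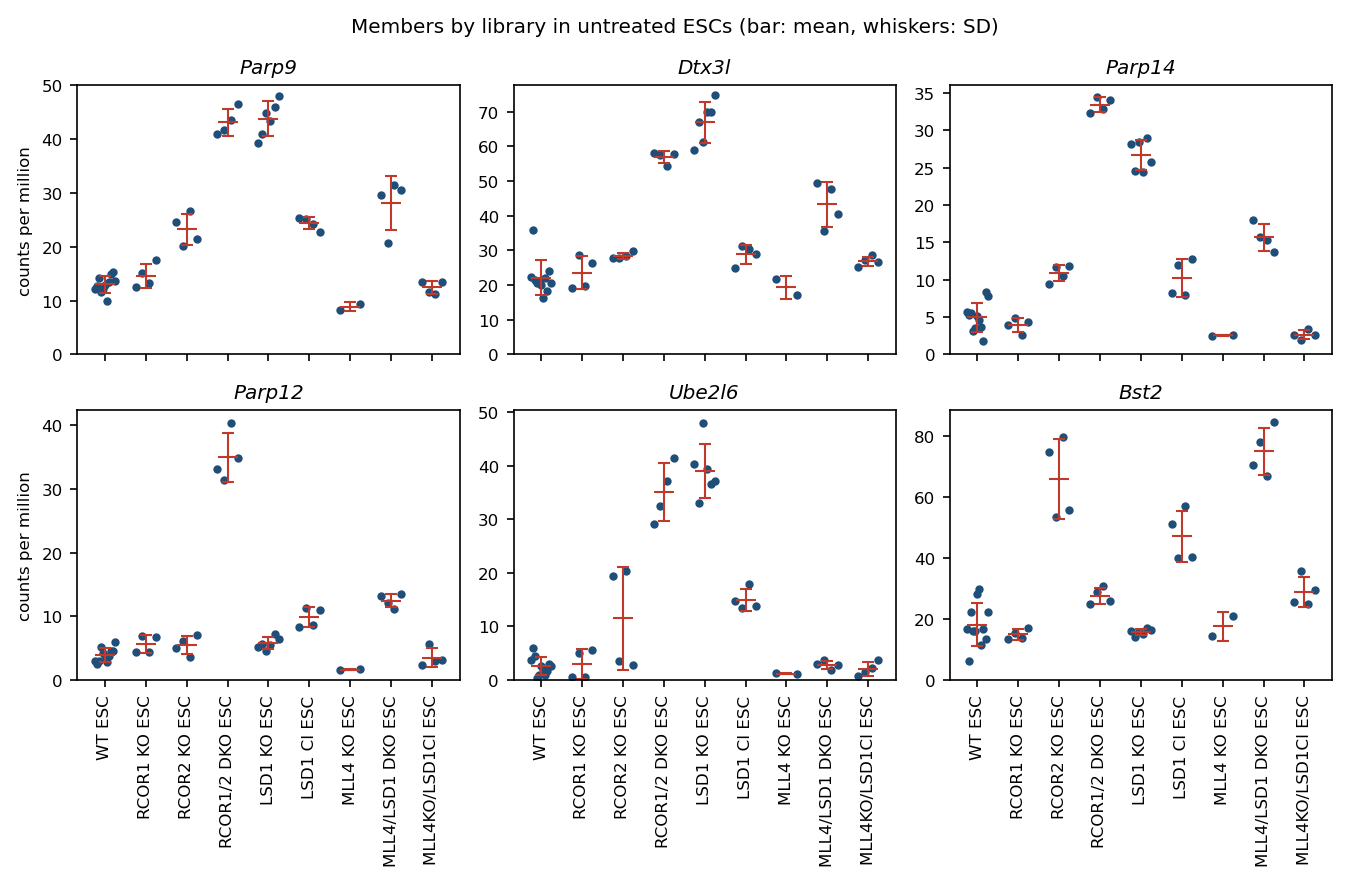
Level (CPM, one point per library, bar for the group mean, whiskers for its SD) of 6 members (Parp9, Dtx3l, Parp14, Parp12, Ube2l6 and Bst2) in untreated WT and mutant ESCs, 9 groups in all. Parp12 reached 31.5 to 40.4 CPM in RCOR1/2 DKO ESCs and at most 13.4 CPM in the other 8 groups, while Bst2 had its highest means in MLL4/LSD1 DKO and RCOR2 KO ESCs.

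LSD1 deletion in ESCs raised 11 members and lowered 1 of 32, against 10.2% higher and 10.8% lower over all genes. Ube2l6 had its highest mean of the 34 groups, with 33.1 to 48.0 CPM (median 38.2) (log2 fold change 3.92, SE 0.44, adjusted p = 2.22e-09). Parp14 read 24.5 to 28.9 CPM (median 26.9) (log2 fold change 2.46, SE 0.17, adjusted p = 2.41e-15). Parp9 read 39.3 to 48.1 CPM (median 44.2) (log2 fold change 1.77, SE 0.084, adjusted p = 2.95e-20). Dtx3l read 58.9 to 74.8 CPM (median 68.4) (log2 fold change 1.61, SE 0.11, adjusted p = 6.41e-16). No LSD1 KO library overlapped WT for these 4 genes. Parp12 read 4.50 to 7.24 CPM (median 5.56) and was not called (log2 fold change 0.58). In the OAS family 4 genes rose.

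Among these Oasl2 read 1.23 to 2.93 CPM (median 2.40) against 0 to 0.826 CPM (median 0.222) in WT (log2 fold change 2.98, SE 0.53, adjusted p = 6.33e-06). Oas3 read 6.81 to 8.66 CPM (median 7.14) against 0.554 to 2.47 CPM (median 1.26) (log2 fold change 2.47, SE 0.31, adjusted p = 8.12e-09). Oasl1 read 3.42 to 6.58 CPM (median 5.94) (log2 fold change 1.55, SE 0.22, adjusted p = 1.27e-07). Oas1a read 18.6 to 27.3 CPM (median 21.5) (log2 fold change 1.07, SE 0.17, adjusted p = 7.51e-07). Ranges did not overlap for any of the 4. Ifi35 rose as well (log2 fold change 1.67, SE 0.18, adjusted p = 1.56e-10), and Mx1 and Mx2, dynamin-like GTPases, rose at levels below 1 CPM with overlap. Bst2 read 13.9 to 16.9 CPM (median 15.9), inside the WT range. Since all 6 LSD1 KO ESC libraries belonged to the separately handled set, a fit with that set as a term was also made, and 7 members were called. Against WT replicates 1 to 3 alone, which share it, 9 were called, 8 higher and Zbp1 lower (log2 fold change -1.21, adjusted p = 0.00619). The shares of all genes given above belong to the fit against all WT libraries without this term. Those of the other fits are not given here. With the term, Oas1a (0.713 on the log2 scale), Oasl2 (2.18, adjusted p = 0.0185), Mx1 and Mx2 lost their calls. Irf7, the 1 member called lower against all WT libraries, changed direction: its log2 fold change was -3.91 there, 3.34 (adjusted p = 0.207) with the term and 3.34 (adjusted p = 0.0706) against WT replicates 1 to 3. Irf7 and Zbp1 are singled out here after their values were seen. LSD1 KO libraries of other experiments differed from these, with Bst2 at 61.1 and 63.2 CPM in LSD1 KO ESCs given DMSO and 49.0 and 71.1 CPM in those of the DOX experiment, and the difference was not tested. Oas1a read 10.8 and 9.57 CPM with DMSO and 11.4 and 7.33 CPM in the DOX experiment.

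Catalytic inactivation of LSD1 raised 4 of 32 members in ESCs and lowered none (background 2.08% and 1.16%). Bst2 read 51.0, 39.8, 57.1 and 40.4 CPM (log2 fold change 1.34, SE 0.20, adjusted p = 6.77e-06). Parp12 read 8.34, 11.3, 8.61 and 11.04 CPM (log2 fold change 1.30, SE 0.17, adjusted p = 3.73e-07). Ube2l6 read 14.7, 13.4, 17.9 and 13.8 CPM (log2 fold change 2.47, SE 0.47, adjusted p = 0.000419). For these 3 genes each LSD1 CI library lay above every WT library. Parp14 read 8.18, 11.9, 7.95 and 12.8 CPM and overlapped WT (log2 fold change 1.01, SE 0.20, adjusted p = 0.000352), and without replicate 2 or replicate 4 it was below 2-fold (0.929 and 0.889 on the log2 scale). The difference between deletion and inactivation was not tested for these genes.

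Loss of MLL4 shifted the members in both directions. In MLL4 KO ESCs 3 members rose and 9 fell of 32 (background 3.84% higher and 6.85% lower). Ifi35 read 0.304 and 0.671 CPM (log2 fold change -3.35, SE 0.40, adjusted p = 2.36e-08). Oas1a read 0.911 and 1.05 CPM (log2 fold change -3.55, SE 0.38, adjusted p = 1.07e-09). Both genes lay below every WT library. Oas2, Oas3, Oasl1, Irf1, Zbp1, Parp12 and Xaf1 fell by 1.23 to 3.84 on the log2 scale. Samd9l read 38.0 and 46.1 CPM (log2 fold change 3.04, SE 0.37, adjusted p = 4.2e-08). Rsad2, the antiviral enzyme viperin, read 2.94 and 2.68 CPM (log2 fold change 2.73, SE 0.73, adjusted p = 0.00394). Cmpk2, its genomic neighbour 12.8 kb away, was also higher, by 1.90 on the log2 scale. In RCOR2 KO ESCs, Rsad2 had a log2 fold change of -1.93 against WT replicates 10 and 11 alone. It was 0.198 against replicates 6 and 7 alone and 1.84 against replicates 4, 5, 8 and 9 alone. WT replicates 10 and 11 held 17221431 and 19439107 counts, near the 19761624 and 20865788 of MLL4 KO ESCs. Other WT ESC libraries held at least 36090004 counts. MLL4 KO ESCs against WT replicates 10 and 11 alone were not tested. The Rsad2 call was lost without either MLL4 KO library (adjusted p = 0.0524 and 0.0345), as was that of Xaf1. Without replicate 1 the calls of Oas3, Oasl1, Parp12, Zbp1 and Cmpk2 were lost too, leaving 5. The endothelial markers summed to 69.0 to 124 CPM in WT, 31.2 to 47.1 in MLL4 KO, 63.9 to 84.1 in MLL4/LSD1 DKO and 29.0 to 41.2 in MLL4KO/LSD1CI ESCs, and the 4 epiblast-like markers to 102 to 311, 52.7 to 80.4, 104 to 150 and 67.5 to 124 CPM, and their part in the results was not tested.

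When LSD1 was also deleted, 8 members rose and 5 fell (background 8.59% and 5.58%), and when it was inactivated 5 rose and 8 fell (background 6.28% and 7.8%). Ifit2 reached 19.3, 16.2, 11.8 and 17.8 CPM in MLL4/LSD1 DKO ESCs (log2 fold change 2.82, SE 0.20, adjusted p = 1.51e-14). Bst2 read 70.4, 77.8, 66.8 and 84.4 CPM (log2 fold change 1.98, SE 0.19, adjusted p = 1.24e-10). Both genes lay above all WT libraries. Oas1a was low in both combined mutants, with 0.480, 0.995, 0.689 and 0.324 CPM in MLL4/LSD1 DKO and 1.44, 1.40, 3.53 and 2.94 CPM in MLL4KO/LSD1CI ESCs. In these 2 groups and in MLL4 KO ESCs, which all share the WT libraries, the log2 fold changes of Irf1 were -1.20, -1.48 and -1.63, those of Ifi35 -1.39, -2.55 and -3.35, and those of Samd9l 1.11, 1.86 and 3.04. Usp18 rose in both combined mutants, with overlap, and Parp9, Parp12 and Parp14 rose in MLL4/LSD1 DKO ESCs (1.05, 1.61 and 1.60). WT libraries differed for Usp18: in RCOR2 KO ESCs its log2 fold change was -0.314 against WT replicates 10 and 11 alone. Against replicates 6 and 7 alone it was 5.13, and 5.13 against replicates 4, 5, 8 and 9 alone. In WT, Samd9l was highest in replicates 10 and 11. The combined mutants against these 2 replicates alone were not tested. Leaving out one library ended the calls of Parp9 and Samd9l in MLL4/LSD1 DKO and of Oas3 and Usp18 in MLL4KO/LSD1CI ESCs.

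EBs of the same mutants were compared next. The libraries labelled RCOR2 KO EB had 2 members higher of 32 and none lower (background 2.18% higher and 3.1% lower). Ifit2 read 13.7 and 12.8 CPM against 2.94 to 8.06 CPM (median 5.97) in WT EBs (log2 fold change 1.15, SE 0.24, adjusted p = 0.00284). Oas3 read 2.00 and 3.61 CPM against 0.319 to 1.15 CPM (median 0.760) (log2 fold change 1.92, SE 0.43, adjusted p = 0.00435). Neither gene overlapped. The calls rest on both libraries: without replicate 1 there was 1 and without replicate 2 none. Bst2 read 34.2 and 31.4 CPM against 6.58 to 33.2 CPM (median 19.5) in WT EBs. Ifi35 read 0.424 and 0.621 CPM against 0.517 to 2.02 CPM (median 0.676). Neither was called. The difference between the response in EBs and in ESCs passed the threshold by edgeR for none of 31 members (background 1.39% and 1.73%), with 6 at an unadjusted p below 0.05 (against 27.4% of all genes) and 2 called by DESeq2. Nearest were Ifi35 at -2.45 (adjusted p = 0.0114) and Usp18 at -4.90 (adjusted p = 0.0198). RCOR1 KO EBs had no call of 32 by edgeR or DESeq2 (background 0.0% and 0.00558%), and 3 members had an unadjusted p below 0.05 (against 9.87% of all genes).

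RCOR1/2 DKO EBs had 20 members higher and 1 lower of 32, where 14.1% of all genes rose and 12.3% fell. The median log2 fold change was 1.91 over the members and -0.0315 over all genes. All 5 OAS genes, all 4 of the PARP and DTX3L group, and 4 of the 5 antiviral effectors tested were among the genes that rose. Parp12 read 40.9, 47.7, 56.6 and 53.0 CPM against 2.76 to 5.72 CPM (median 3.49) in WT EBs (log2 fold change 3.69, SE 0.20, adjusted p = 4.74e-12). Parp9 read 59.7, 67.4, 63.0 and 59.0 CPM against 2.46 to 12.1 CPM (median 6.11) (log2 fold change 3.22, SE 0.28, adjusted p = 5.62e-09). Dtx3l read 82.9, 83.2, 86.7 and 88.7 CPM against 4.46 to 15.1 CPM (median 10.4) (log2 fold change 3.10, SE 0.25, adjusted p = 1.68e-09). Each was above its WT EB range and above its level in WT ESCs. Irf1, a transcription factor that binds ISG promoters, read 80.0, 109, 88.8 and 75.1 CPM against 8.68 to 27.3 CPM (median 17.7) (log2 fold change 2.31, SE 0.34, adjusted p = 8.17e-06). Trim25 read 89.6, 85.8, 115 and 93.7 CPM against 9.96 to 37.5 CPM (median 26.7) (log2 fold change 2.00, SE 0.27, adjusted p = 2.25e-06). Bst2 read 52.5, 73.9, 75.0 and 61.7 CPM (log2 fold change 1.62, SE 0.31, adjusted p = 0.00015). Trim25 and Oas1a (3.48, 3.15, 2.46 and 1.67 CPM) stayed below their WT ESC range. Zbp1, a sensor of Z-form nucleic acid, had no count in 5 of 7 WT EB libraries and read 0.509, 1.49, 2.66 and 2.47 CPM (log2 fold change 6.59, SE 0.81, adjusted p = 6.12e-07). Usp18 alone fell, from 3.21 to 10.99 CPM (median 6.20) to 0.959, 2.59, 1.40 and 0.737 CPM (log2 fold change -2.20, SE 0.52, adjusted p = 0.00111). Ifih1 and Ube2l6 lost their calls without RCOR1/2 DKO replicate 2.

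LSD1 KO EBs had 16 members higher of 32 and none lower (background 8.28% and 5.42%), and none of the 16 overlapped WT. Parp12 read 55.2 and 42.1 CPM (log2 fold change 3.70, SE 0.22, adjusted p = 2.65e-10). Dtx3l read 92.4 and 86.8 CPM (log2 fold change 3.20, SE 0.28, adjusted p = 6.37e-08). Irf1 read 107 and 146 CPM (log2 fold change 2.86, SE 0.39, adjusted p = 1.53e-05). Isg15, the ubiquitin-like modifier itself, read 2.51 and 3.24 CPM against 0.122 to 0.495 CPM (median 0.246) in WT EBs (log2 fold change 3.19, SE 0.59, adjusted p = 0.00028) and 0.120, 0.730, 0.644 and 0.397 CPM in RCOR1/2 DKO EBs, where it was not called. Ifih1 read 8.78 and 6.83 CPM against 0.362 to 1.46 CPM (median 0.797) (log2 fold change 3.26, SE 0.39, adjusted p = 2.21e-06). Oasl2 read 24.2 and 20.6 CPM against 0.335 to 3.58 CPM (median 1.17) (log2 fold change 3.90, SE 0.59, adjusted p = 4e-05). Leaving out one LSD1 KO library ended the calls of Ifi35, Oas2, Rsad2 and Ube2l6. A second pair of groups, LSD1 KO and WT EBs given DMSO, had 21 of 31 members higher and none lower (background 11.7% and 7.13%), with a median log2 fold change of 2.95. There Isg15 read 3.39 and 2.703 CPM against 0.164 and 0.148 CPM (log2 fold change 4.17, SE 0.52, adjusted p = 5.46e-05). Bst2 read 53.9 and 49.98 CPM against 10.9 and 10.7 CPM (log2 fold change 2.18, SE 0.13, adjusted p = 1.54e-07). Both genes were apart in all libraries, as were 27 members in all, which with 2 libraries in each group adds little. The share of all genes that were apart in this way is not given here. Oasl1 was at 0 in the WT EBs given DMSO and read 0.172 and 0.143 CPM in LSD1 KO EBs, at least 4.68-fold higher when the floor of 3 counts over the WT group is used. This call was lost on leaving out any one of the 4 libraries (adjusted p = 0.0219 to 0.0434) and with halved counts (adjusted p = 0.0268), and those of Ifit1, Oas1a, Rsad2 and Ube2l6 without at least 1 library.

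LSD1 CI EBs had 1 member higher and 1 lower of 32 (background 0.993% and 1.55%). Parp12 read 8.24, 8.75, 14.0 and 6.79 CPM (log2 fold change 1.38, SE 0.20, adjusted p = 8.23e-05), above all WT EBs. Ddx58 (RIG-I) read 11.7, 10.3, 8.02 and 6.21 CPM against 12.2 to 39.8 CPM (median 19.0) (log2 fold change -1.25, SE 0.30, adjusted p = 0.00895), below all of them. The Ddx58 call was lost on leaving out any one of the 4 LSD1 CI libraries (adjusted p = 0.0129 to 0.037). Replicate 4 stood apart from the other three for Irf1 (9.74 CPM against 26.7 to 30.0) and Parp9 (6.61 CPM against 12.8 to 13.2).

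The EB groups also differed in the markers of other cells, whose part in these results was not tested. The 5 visceral endoderm markers summed to 95.0 to 139 CPM in WT EBs, 78.8 to 132 in LSD1 CI EBs, 1.21 to 15.1 in the libraries labelled RCOR2 KO EB, 5.65 to 7.35 in LSD1 KO EBs and 0.731 to 1.16 in RCOR1/2 DKO EBs, with Afp at 0 in LSD1 KO EBs and Ttr at 0 in RCOR1/2 DKO EBs. The 5 pluripotency markers summed to 18.3 to 189 CPM in WT EBs, 232 to 330 in those labelled RCOR2 KO EB, 552 to 606 in LSD1 KO EBs and 1100 to 1180 in RCOR1/2 DKO EBs. The 5 neural markers summed to 16.6 to 128 CPM in WT EBs, 153 to 189 in those labelled RCOR2 KO EB, 161 to 196 in LSD1 KO EBs and 121 to 144 in RCOR1/2 DKO EBs. The 5 fibroblast markers summed to 92.2 to 381 CPM in WT EBs, 96.6 to 151 in those labelled RCOR2 KO EB, 48.5 to 68.5 in LSD1 KO EBs and 33.2 to 39.5 in RCOR1/2 DKO EBs. The 5 endothelial markers summed to 39.9 to 347 CPM in WT EBs, 7.03 to 22.6 in those labelled RCOR2 KO EB, 26.3 to 27.1 in LSD1 KO EBs and 52.5 to 79.3 in RCOR1/2 DKO EBs. The 7 macrophage and blood markers stayed low in all of them (WT EBs 5.54 to 12.9 CPM, LSD1 KO EBs 4.52 to 5.92, RCOR1/2 DKO EBs 3.75 to 7.23), with 1 of 7 at a mean of 1 CPM or more in LSD1 KO and RCOR1/2 DKO EBs. The members together summed to 122 to 238 CPM in WT EBs, 597 to 624 in LSD1 KO EBs and 602 to 727 in RCOR1/2 DKO EBs.

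**Figure D3:**
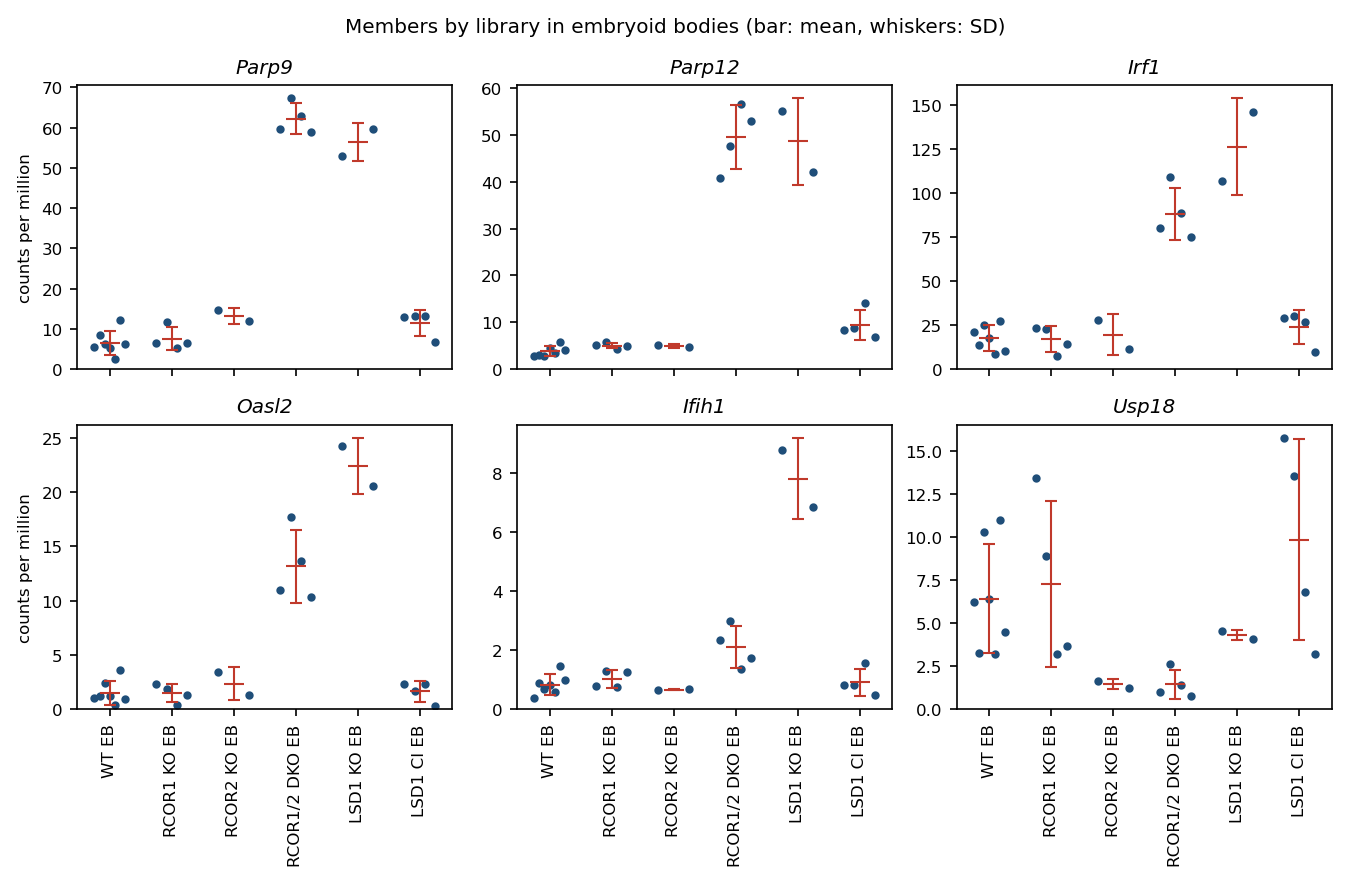
Level (CPM, one point per library, bar for the group mean, whiskers for its SD) of Parp9, Parp12, Irf1, Oasl2, Ifih1 and Usp18 in WT, RCOR1 KO, RCOR2 KO, RCOR1/2 DKO, LSD1 KO and LSD1 CI EBs. Parp12 lay at 40.9 to 56.6 CPM in RCOR1/2 DKO and LSD1 KO EBs and at most 14.0 CPM in WT and LSD1 CI EBs, and Usp18 was lower in RCOR1/2 DKO EBs than in any WT EB library.

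The DOX libraries asked how expression responds when LSD1 is put back. In LSD1Res ESCs Kdm1a went from 35.7, 38.1, 10.8 and 12.6 CPM without DOX to 2253, 2211, 979.6 and 986 CPM with it, and 3 of 28 members tested fell and none rose (background 0.32% higher and 2.05% lower). The median log2 fold change was -0.738 over the members and -0.00856 over all genes. Libraries of the same number with and without DOX deviated together, so they are also given as pairs, and 20 of the 34 members were lower with DOX in 4 of 4 pairs while Ddx58 was higher in 4 of 4. All 21 were among the 28 members tested, and of all genes tested 27.2% were lower and 18.3% higher with DOX in every pair. The 4 pairs may not be independent, as replicates 1 and 2 resembled each other, as did replicates 3 and 4. Without DOX their mean squared differences were 16.6 and 9.88 times sampling variance, against 61.4 to 68.5 for other combinations. Ifit2 went from 3.02, 3.80, 3.97 and 3.38 CPM to 1.05, 1.27, 1.86 and 0.871 CPM (log2 fold change -1.45, SE 0.21, adjusted p = 0.000227). Ifi35 went from 8.82, 9.22, 14.1 and 11.9 CPM to 3.34, 3.65, 5.29 and 4.62 CPM (log2 fold change -1.35, SE 0.17, adjusted p = 7.16e-05). Neither gene overlapped. Oasl2 went from 0.0900, 0.478, 1.299 and 0.595 CPM to 0, 0.0490, 0.0909 and 0.0471 CPM (log2 fold change -3.60, SE 0.81, adjusted p = 0.00678). It overlapped, and its call was lost in 6 of the 8 fits that left out one library.

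With the pair as a term, 5 members fell, and the share of all genes that fell in that fit is not given here. The 2 added were Parp14, from 18.2, 18.3, 29.2 and 29.9 CPM to 8.07, 8.19, 16.1 and 14.5 CPM (log2 fold change -1.02, SE 0.079, adjusted p = 8.24e-09), and Samd9l, from 9.52, 11.2, 10.2 and 10.9 CPM to 6.48, 7.13, 3.36 and 3.15 CPM (log2 fold change -1.08, SE 0.17, adjusted p = 0.000227). Without noDOX replicate 1 or without noDOX replicate 2 there were also 5 calls. Parp12 went from 19.1, 17.7, 36.1 and 31.7 CPM to 12.2, 12.5, 15.2 and 12.4 CPM, Parp9 from 32.7, 32.2, 32.8 and 31.1 CPM to 17.0, 17.1, 19.8 and 18.3 CPM and Dtx3l from 49.6, 50.1, 46.3 and 48.9 CPM to 28.8, 27.2, 27.7 and 22.8 CPM. These 3 genes had no overlap and log2 fold changes of -0.96, -0.80 and -0.83 in the fit without pairs, short of 2-fold. Ube2l6 showed how the pairs differ, with 6.98, 6.88, 25.4 and 25.4 CPM without DOX and 4.03, 3.77, 17.6 and 15.6 CPM with it, so that replicates 3 and 4 with DOX stayed above replicates 1 and 2 without. Beside these, the 5 fibroblast markers summed to 16.2 to 24.4 CPM without and 4.82 to 8.85 CPM with DOX and the pluripotency markers to 2680 to 2890 and 2740 to 2940 CPM, and their part in the result was not tested.

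In cells without either scaffold no member passed the thresholds when LSD1 was induced. In DKO+LSD1 ESCs, in which Kdm1a went from 254, 269, 276 and 274 CPM to 1830.0, 2181, 6038 and 5761 CPM, none of 28 was called by edgeR or by DESeq2 (background 0.172% and 0.16%), 6 had an unadjusted p below 0.05 (against 18.2% of all genes), and the median was -0.0606 on the log2 scale. Ube2l6 read 29.0, 32.1, 35.2 and 33.3 CPM without and 31.3, 33.8, 38.4 and 41.5 CPM with DOX, higher in 4 of 4 pairs. Ifit2 read 4.39, 3.64, 3.85 and 4.26 CPM and 2.43, 3.12, 2.79 and 2.56 CPM, lower in 4 of 4 pairs and not called. Oasl2 went from 0.663, 0.947, 0.826 and 0.744 CPM to 1.14, 1.05, 4.42 and 5.03 CPM, and rose with the pair as a term (log2 fold change 1.58, SE 0.40, adjusted p = 0.00831). Of the 28 members tested, 8 were lower and 6 higher with DOX in 4 of 4 pairs, where 16.2% of all genes tested were lower and 20.4% higher. The difference between LSD1Res and DKO+LSD1 cells in their response to DOX was not tested.

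DOX itself, in LSD1 KO ESCs without a transgene, gave no call of 28 by edgeR or DESeq2 (background 0.0% and 0.0178%), with 2 members at an unadjusted p below 0.05 (against 7.04% of all genes) and a median of -0.191. Of the 28 members, 11 were lower and 8 higher with DOX in 2 of 2 pairs, where 19.0% of all genes tested were lower and 44.9% higher. With the pair as a term Dtx3l was lower by less than 2-fold (log2 fold change -0.455, SE 0.092, adjusted p = 0.00631). Ifit2 read 4.21 and 3.99 CPM without and 3.98 and 3.78 CPM with DOX, and Ifi35 11.8 and 9.36 CPM and 9.45 and 8.37 CPM. The response of LSD1Res minus that of LSD1 KO cells passed the threshold for no member by edgeR (background 0.0% and 0.0178%; 7 at an unadjusted p below 0.05, against 11.1% of all genes, and 1 called by DESeq2). With the pair as a term, which in LSD1 KO cells rests on 2 pairs, it did for 3: Ifit2 (log2 fold change -1.31, SE 0.31, adjusted p = 0.00798), Ifi35 (log2 fold change -1.01, SE 0.19, adjusted p = 0.00124) and Parp14 (log2 fold change -1.12, SE 0.13, adjusted p = 1.38e-05). Shares of all genes called in the fit with pairs are not given here. Samd9l, called lower in LSD1Res ESCs in that fit, was also lower with DOX alone in LSD1 KO ESCs, without a call (log2 fold change -0.840, SE 0.25, adjusted p = 0.0688). The difference between its 2 responses was -0.244 on the log2 scale (SE 0.31, adjusted p = 0.679).

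**Figure D4:**
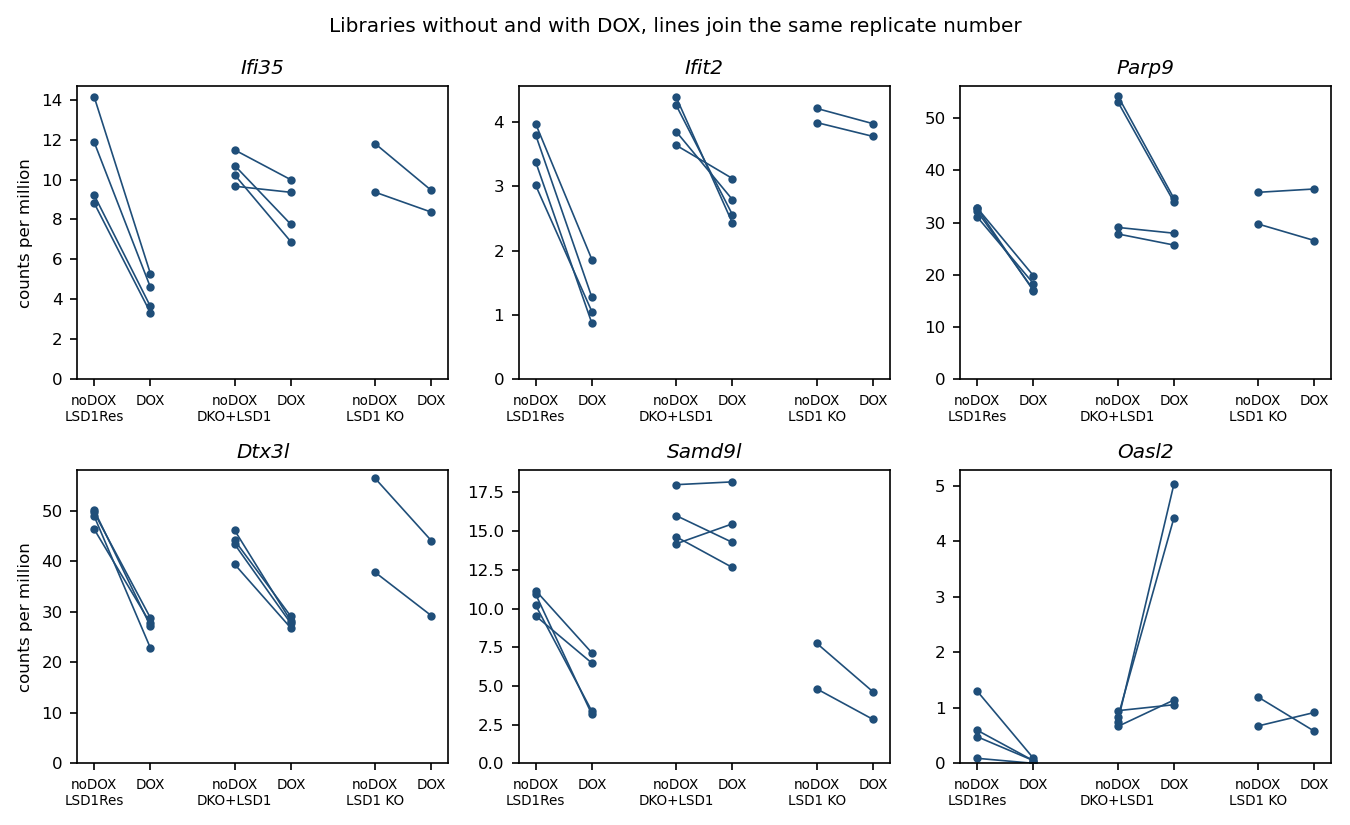
Level (CPM) of Ifi35, Ifit2, Parp9, Dtx3l, Samd9l and Oasl2 without and with DOX in LSD1Res, DKO+LSD1 and LSD1 KO ESCs, one point per library, with lines joining libraries of the same number. In LSD1Res ESCs the lines of all 6 genes fall in 4 of 4 pairs, while in DKO+LSD1 ESCs those of Ifi35, Ifit2, Parp9 and Dtx3l fall and those of Oasl2 rise in 4 of 4 pairs.

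In cells differentiated in serum, all given DMSO here, LSD1 KO raised 9 of 29 members and lowered none (background 6.22% and 3.34%). Parp12 read 37.9 and 32.3 CPM against 6.67 and 4.76 CPM in WT (log2 fold change 2.62, SE 0.26, adjusted p = 0.000187). Trim25 read 105 and 86.5 CPM against 29.3 and 27.8 CPM (log2 fold change 1.74, SE 0.12, adjusted p = 2.81e-06). Both were apart in all libraries, as were Parp14, Parp9, Ifi35, Oasl2, Ube2l6 and Samd9l, which also rose. With 2 libraries in each group this adds little, as 25 members lay higher and 1 lower than WT in all libraries. How many of all genes did so is not given here. Rsad2 had no count in WT and read 0.867 and 1.26 CPM, at least 29.3-fold higher with the floor of 3 counts over the WT group. Without LSD1 KO replicate 1 there were 5 calls, with Parp9, Ifi35, Ube2l6 and Samd9l lost. LSD1 CI raised 1 of 29, Rsad2, at 0.595 and 0.490 CPM and at least 14.9-fold higher (background 2.41% and 0.577%), and this call was lost on leaving out any one of the 4 libraries. The 5 trophoblast markers summed to 9.32 to 12.0 CPM in WT, 70.9 to 85.5 in LSD1 KO and 82.7 to 127 in LSD1 CI serum cells, and the neural markers to 248 to 321, 113 to 128 and 184 to 210 CPM, and their part in the results was not tested.

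In EpiLCs, likewise with DMSO, LSD1 KO raised 9 of 28 members and lowered none (background 6.82% and 2.66%). Ube2l6 read 6.71 and 7.07 CPM against 0.971 and 0.535 CPM in WT (log2 fold change 3.18, SE 0.27, adjusted p = 3.25e-07). Parp14 read 28.2 and 19.5 CPM against 4.05 and 2.99 CPM (log2 fold change 2.73, SE 0.22, adjusted p = 4.16e-07). Ddx58 read 58.2 and 58.0 CPM against 24.5 and 15.0 CPM (log2 fold change 1.53, SE 0.18, adjusted p = 0.000156). Parp9, Parp12, Dtx3l, Oas2, Samd9l and Xaf1 rose too. No called gene overlapped, which adds little here, as 22 members lay higher and 2 lower than WT in all libraries. How many of all genes did so is not given. LSD1 CI raised Ube2l6, at 3.25 and 3.01 CPM (log2 fold change 2.10, SE 0.27, adjusted p = 0.00016), and Samd9l (log2 fold change 1.21, SE 0.28, adjusted p = 0.00906), 2 of 28 members (background 1.61% and 0.538%). Without WT replicate 1 there were 14 calls for LSD1 KO and 6 for LSD1 CI, and without WT replicate 2 or either LSD1 CI library 1 call for LSD1 CI. Samd9l lost its LSD1 CI call on leaving out any one of the 4 libraries, and Xaf1 its LSD1 KO call without WT replicate 1 or LSD1 KO replicate 2. Epiblast-like markers summed to 2500 to 2510 CPM in WT, 1470 to 1490 in LSD1 KO and 2150 to 2210 in LSD1 CI EpiLCs, and trophoblast markers to at most 1.97, 21.4 and 4.05 CPM, and their part in the result was not tested.

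Inhibition of P300 and CBP in LSD1 KO cells moved members both ways. Some genes rose in one cell state and fell in another, but that difference was not tested, and the dose of A485 differed between ESCs and EBs. In ESCs 7 of 29 members rose and 2 fell with A485 (background 5.94% higher and 11.7% lower). Parp12 went from 11.8 and 11.9 CPM to 70.4 and 67.6 CPM (log2 fold change 2.48, SE 0.086, adjusted p = 2.28e-14). Dtx3l went from 42.3 and 40.6 CPM to 106 and 99.5 CPM (log2 fold change 1.25, SE 0.070, adjusted p = 1.45e-11). Irf1 went from 36.3 and 35.8 CPM to 89.96 and 83.9 CPM (log2 fold change 1.21, SE 0.072, adjusted p = 3.89e-11). Ifih1 went from 0.144 and 0.138 CPM to 2.38 and 2.86 CPM (log2 fold change 4.13, SE 0.43, adjusted p = 1.21e-07), and Oasl2, Parp9 and Cmpk2 rose as well. Oas1a fell from 10.8 and 9.57 CPM to 4.54 and 4.40 CPM (log2 fold change -1.25, SE 0.16, adjusted p = 1.62e-06), as did Xaf1, a pro-apoptotic protein (log2 fold change -1.34, SE 0.15, adjusted p = 1.92e-07). No called gene overlapped between the groups in any of the 4 A485 comparisons, which with 2 libraries in each group adds little to a call. In ESCs 14 of the 29 members lay higher and 9 lower in both A485 libraries than in both DMSO libraries, and the share of all genes that did so is not given here. In ESCs the pluripotency markers summed to 2350 to 2380 CPM with DMSO and 1070 to 1090 with A485, the endothelial markers to 150 to 153 and 61.6 to 65.7, the neural markers to 95.9 to 102 and 29.4 to 30.7, and the fibroblast markers to 32.8 to 39.2 and 4.57 to 4.86 CPM, and their part in the result was not tested.

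In LSD1 KO EBs, 4 of 31 members rose and 3 fell with A485 (background 4.26% and 9.54%). Isg15 went from 3.39 and 2.703 CPM to 0.224 and 0.220 CPM (log2 fold change -3.67, SE 0.50, adjusted p = 0.000155), and WT EBs given DMSO read 0.164 and 0.148 CPM. Ifih1 went from 6.85 and 7.56 CPM to 1.46 and 1.40 CPM (log2 fold change -2.24, SE 0.30, adjusted p = 0.000158). Usp18 went from 6.40 and 5.77 CPM to 0.867 and 1.18 CPM (log2 fold change -2.46, SE 0.29, adjusted p = 5.79e-05). Trim25 rose from 38.3 and 33.3 CPM to 96.4 and 117 CPM (log2 fold change 1.67, SE 0.14, adjusted p = 4.27e-06), with Oasl1, Samd9l and Stat2, of which Oasl1 and Stat2 lost their calls without at least 1 library. The pluripotency markers summed to 533 to 565 CPM with DMSO and 1240 to 1260 CPM with A485, the neural markers to 155 to 170 and 53.6 to 61.5, and the fibroblast markers to 45.1 to 45.2 and 10.1 to 12.8 CPM, and their part in the result was not tested.

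In serum, 1 of 29 members rose and 4 fell (background 3.52% and 9.0%), and in EpiLCs 2 of 28 rose and 7 fell (background 7.43% and 10.2%). Oasl2 went from 5.47 and 5.89 CPM to 1.11 and 1.24 CPM in serum (log2 fold change -2.35, SE 0.29, adjusted p = 6.46e-05) and from 6.01 and 4.37 CPM to 0.681 and 0.481 CPM in EpiLCs (log2 fold change -3.26, SE 0.37, adjusted p = 2.95e-06). Rsad2, Ddx58 and Parp14 fell in both states, and Oas2, Oasl1 and Zbp1 in EpiLCs. Rsad2 stood at 0.195 and 0.183 CPM in EpiLCs with A485 against 2.27 and 1.87 CPM without. Eif2ak2 rose in both, to 59.0 and 49.0 CPM and 55.2 and 75.5 CPM, and Oas3 in EpiLCs. In serum there were 3 calls without DMSO replicate 1 and 2 without A485 replicate 2. The calls of Rsad2, Ddx58 and Parp14 in serum and of Oas2, Oas3, Oasl1 and Parp14 in EpiLCs were each lost without at least 1 library. Epiblast-like markers summed to 1470 to 1490 CPM in EpiLCs with DMSO and 233 to 264 CPM with A485, and in serum to 758 to 789 and 168 to 176 CPM, and their part in the result was not tested.

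**Figure D5:**
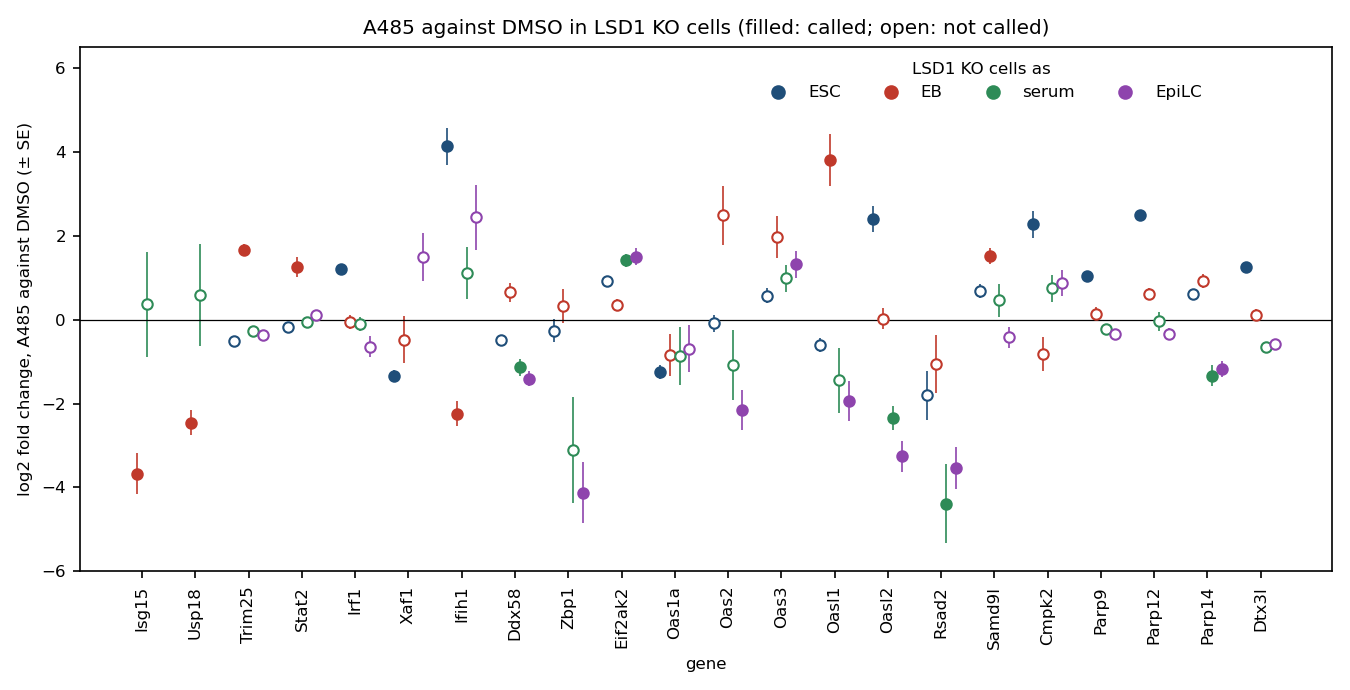
Log2 fold change of members with A485 against DMSO in LSD1 KO ESCs, EBs, serum cells and EpiLCs, with whiskers of 1 SE, and filled markers for calls at an adjusted p below 0.01 and more than 2-fold. Oasl2 lies at 2.40 in ESCs, -2.35 in serum and -3.26 in EpiLCs, and Ifih1 at 4.13 in ESCs and -2.24 in EBs.

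A further 10 members were called in fewer than 3 comparisons. Stat2 (7.49 to 106 CPM over all libraries), Irf9 (3.97 to 27.1 CPM) and Eif2ak2 (10.2 to 81.2 CPM) were present in all 112 libraries, and Dhx58 spanned 0.432 to 4.06 CPM. Ifit1, Ifit3, Ifi44, Mx1 and Mx2 reached at most 3.03, 0.677, 0.207, 0.705 and 2.04 CPM and had no count in 41, 48, 94, 32 and 28 libraries. Ifi44 was too low to be tested in any comparison, Ifit3 was tested in 7 of 27 and called in none, and Irf7 spanned 0 to 2.97 CPM. Ifit1 was highest in LSD1 KO EBs given DMSO, at a mean of 2.47 CPM, in the 1 comparison in which it rose.

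Members with and without the promoter motifs were among those that rose. Of the 7 members with a promoter window that rose in LSD1 KO ESCs, 2 held GAAANNGAA and 4 held neither motif, of the 7 in RCOR1/2 DKO ESCs 1 and 4, and of the 5 in RCOR2 KO ESCs 1 and 2. In EBs the counts were 7 and 6 of the 16 that rose in RCOR1/2 DKO and 8 and 7 of the 18 that rose in LSD1 KO EBs given DMSO, beside 14 and 9 of all 26 members with a window. Several members lie next to each other in mm9. Dtx3l and Parp9 lie on opposite strands of chromosome 16 and are transcribed away from each other. They have 558 bases in common at their starts, where counting by strand keeps their reads apart, and Parp14 lies 55.1 kb from Dtx3l. Oasl1 and Oasl2 lie 10994 bases apart and Oas2 and Oas3 3.2 kb apart on chromosome 5, and near-identical copies such as Oas1g beside Oas1a leave the values of the OAS and IFIT genes less certain.

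Other genes of the pathway were taken as lists. Interferon genes themselves were near 0: over all 112 libraries Ifnb1 reached 0.232 CPM and Ifna4 0.242 CPM, while Ifnk reached 1.47 CPM and Ifng 3.61 CPM. Of 12 ligands, receptors and JAK-STAT genes tested none was called in RCOR2 KO ESCs, 1 of 12 rose in RCOR1/2 DKO ESCs (Jak2) and in LSD1 KO ESCs 1 rose (Ifnlr1) and 1 fell. Among 47 further ISGs tested, 3 rose in RCOR2 KO ESCs. Rnf213, a large ubiquitin ligase, read 162 to 280.5 CPM (median 231) in WT and 456, 498, 516 and 499 CPM in RCOR2 KO ESCs (log2 fold change 1.19, SE 0.11, adjusted p = 3.94e-10), with Nmi (log2 fold change 2.10, SE 0.43, adjusted p = 0.000398) and Oas1b (log2 fold change 1.76, SE 0.41, adjusted p = 0.00166). In RCOR1/2 DKO ESCs 5 of the 47 rose and 4 fell, against 11.3% and 6.32% over all genes. In LSD1 KO ESCs there were 8 higher and 1 lower (all genes 10.2% and 10.8%), and in MLL4 KO ESCs 2 rose and 7 fell (3.84% and 6.85%). In RCOR2 KO ESCs the shares of all genes were 2.33% and 1.52%. Of 15 sensors and adaptors 1 rose in RCOR2 KO ESCs (Ikbke), 4 rose and 2 fell in RCOR1/2 DKO ESCs, and 2 rose and 1 fell in LSD1 KO ESCs. Of 17 inhibitors of the pathway 2 rose in RCOR2 KO ESCs (Socs1 and Nlrx1), 1 fell in RCOR1/2 DKO ESCs and none was called in LSD1 KO ESCs. With DOX in LSD1Res ESCs 5 of 40 further ISGs fell and none rose (all genes 2.05% lower), among them Rnf213, from 235, 263, 473 and 445 CPM to 67.0, 80.7, 109 and 116 CPM (log2 fold change -1.89, SE 0.22, adjusted p = 5.08e-05), and in DKO+LSD1 and LSD1 KO ESCs none of these 40 was called by edgeR.

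In EBs, 25 of the 47 further ISGs rose and 3 fell in RCOR1/2 DKO EBs (all genes 14.1% and 12.3%), with a median log2 fold change of 1.24. In LSD1 KO EBs 19 rose and none fell (8.28% and 5.42%), with a median of 1.28, and 1 rose in those labelled RCOR2 KO EB (2.18% and 3.1%). Among sensors and adaptors, 4 of 14 rose in RCOR1/2 DKO EBs. Tlr3, the receptor for double-stranded RNA in endosomes, read 0.245 to 1.01 CPM (median 0.486) in WT, 11.9, 11.6, 8.78 and 9.13 CPM in RCOR1/2 DKO (log2 fold change 4.14, SE 0.28, adjusted p = 9.71e-11) and 12.4 and 12.1 CPM in LSD1 KO EBs (log2 fold change 4.42, SE 0.31, adjusted p = 2.34e-09). Cgas, the sensor of cytosolic DNA, rose in both as well, by 3.16 and 2.43 on the log2 scale. Among inhibitors, Irf2, a repressor of ISG promoters, fell from 9.89 to 16.9 CPM (median 15.2) to 0.899, 1.43, 1.70 and 1.73 CPM in RCOR1/2 DKO EBs (log2 fold change -3.31, SE 0.22, adjusted p = 1.06e-10), and Socs1, which blocks JAK kinases, rose from 1.03 to 1.91 CPM (median 1.25) to 3.95, 5.21, 4.51 and 5.72 CPM (log2 fold change 1.80, SE 0.20, adjusted p = 2.04e-07). The list of ligands, receptors and JAK-STAT genes had 2 lower and none higher of 11 in RCOR1/2 DKO EBs and the same counts in LSD1 KO EBs. With A485 the further ISGs had 16 higher and 10 lower of 41 in ESCs (all genes 5.94% and 11.7%) and 6 and 7 of 46 in EBs (4.26% and 9.54%). In serum there were 2 and 7 of 45 (3.52% and 9.0%), and in EpiLCs 1 and 17 of 42 (7.43% and 10.2%).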

How the data were processed

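Counts per gene were deposited by the authors, one file per library. Per the labels and methods, ribosomal RNA was depleted, directional libraries were sequenced, and reads were aligned with STAR 2.7.9a to mm9, stripped of duplicates with Picard 2.25.5 and counted by strand with featureCounts. Between 72.2% and 84.7% of counts from 2 to 39 were even, so mates appear to be counted singly, and a fit on halved counts was an alternative. Rn45s, ribosomal RNA left by depletion, took 8.06% to 24.9% of counts and lowers every CPM accordingly.

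Counts were fitted with edgeR 4.0.16 (R 4.3.3): TMM, filterByExpr by group, robust quasi-likelihood fits, and p-values adjusted over all genes tested (Benjamini-Hochberg). As in the study, a gene was called at an adjusted p under 0.01 with more than 2-fold change (1 on the log2 scale). The SE is the log2 fold change divided by the root of F. Groups of one experiment shared a fit. Mutant groups of one cell state share WT libraries. DESeq2 1.42.0, the tool of the study, was an alternative, as were its size factors in edgeR, no filter on low counts, a replicate block, only the groups compared, other WT libraries, and leaving out each library. The scripts were tested on simulated data. No 2 libraries of a group agreed within sampling noise. Tables and figures used Python 3.11.15, pandas 2.3.3 and matplotlib 3.10.9.

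Replicate numbers were checked by correlating deviations from group means. With 3 or more pairs, numbers were taken to pair libraries where every correlation was over 0.1, which held for LSD1Res (0.553 to 0.617) and DKO+LSD1 (0.521 to 0.607). LSD1 KO with DOX has 2 pairs (0.445), too few for this rule, and is blocked as part of the same fit. The members and all lists were chosen with earlier results of these data known. Per-library values were given for the 24 members called in 3 or more comparisons (interactions left out), in RCOR2 KO ESCs or with DOX, and for list genes called in a comparison described, at most 4 per list by smallest adjusted p. Other members have ranges and counts. Dhx58, Eif2ak2, the interferon genes and the members named only for a lost call were named after their values were seen.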

Additional observations from a re-analysis of the deposited data

Results flagged for a closer look

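Of 259 group-and-gene combinations with 4 to 10 libraries and a mean of at least 1 CPM, 9 had one library far from the others by Dixon's test at the 95% level, which chance gives in about 1 of 20. In EBs, LSD1 CI replicate 4 was low for Irf1 (9.74 CPM, the others 26.7 to 30.0) and for Parp9 (6.61 CPM, the others 12.8 to 13.2). In ESCs, Ifit2 was low in LSD1 CI replicate 2 (0.993 CPM, the others 1.38 to 1.44), Parp12 was high in LSD1Res replicate 3 with DOX (15.2 CPM, the others 12.2 to 12.5), Parp14 was high in DKO+LSD1 replicate 4 without DOX (28.0 CPM, the others 24.3 to 24.9), and Dtx3l was low in RCOR1/2 DKO replicate 3 (54.4 CPM, the others 57.4 to 58.0). Zbp1 was high in RCOR2 KO replicate 2 (4.39 CPM, the others 2.75 to 3.02) and in RCOR1/2 DKO replicate 2 (1.67 CPM, the others 1.46 to 1.49), and Trim25 was high in MLL4KO/LSD1CI replicate 3 (101.0 CPM, the others 83.9 to 86.7).

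In 4 cases a gene rose with A485 in one state of LSD1 KO cells and fell in another, with no overlap in either between groups of 2 libraries. Ifih1 had a log2 fold change of 4.13 in ESCs and -2.24 in EBs. Oasl2 stood at 2.40 in ESCs against -2.35 in serum, and at the same 2.40 in ESCs against -3.26 in EpiLCs. Oasl1 stood at 3.80 in EBs and -1.94 in EpiLCs. The dose of A485 was 10 µM in ESCs and 0.4 µM in EBs, and the differences between states were not tested.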

How the results depend on the processing

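Of 308 alternative values for 29 counts of called members, 261 stayed within 1.5 times the main count. Of 2011 alternative values for 209 single-gene calls, 1847 kept direction and call, 162 lost the call and 2 reversed: Irf7 in LSD1 KO ESCs, from -3.91 to 3.34 with the alignment set as a term and to 3.34 with WT replicates 1 to 3 only. The cause of the other changes was not tested.

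DESeq2 called 2 members in RCOR1 KO ESCs, 4 in those labelled RCOR2 KO EB, 5 in LSD1 CI EBs, 6 for DOX in LSD1Res, 1 for DOX in LSD1Res minus LSD1 KO, 2 for the RCOR2 KO response in EBs minus ESCs and 5 in LSD1 CI EpiLCs. The replicate block gave 2 in RCOR1 KO ESCs, 1 in those labelled RCOR2 KO EB, 5 for DOX in LSD1Res, 1 in DKO+LSD1, 3 for LSD1Res minus LSD1 KO, 4 for the RCOR2 KO response difference and 4 in LSD1 CI EpiLCs. In the other comparisons, those with 4 or more shared numbers had a lowest correlation of at most 0.0145, and those with 2 ran from -0.0938 to 0.358, too few pairs to decide. Fitting only the groups compared gave 7 in MLL4 KO ESCs, 0 in those labelled RCOR2 KO EB, 1 in LSD1 CI EBs, 1 for DOX in LSD1Res, 11 for A485 in EBs, 0 in LSD1 CI serum and 1 in LSD1 CI EpiLCs. Without the filter there were 1 in LSD1 CI EBs, 16 in LSD1 KO EpiLCs and 7 in LSD1 CI EpiLCs. Halved counts gave 2 for the RCOR2 KO response difference, the alignment set as a term 7 in LSD1 KO ESCs, and WT replicates 4, 5, 8 and 9 alone 12 in RCOR2 KO ESCs.

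Leaving out one library gave 5 to 6 calls in RCOR2 KO ESCs, 9 to 10 in RCOR1/2 DKO ESCs, 3 to 4 in LSD1 CI ESCs, 5 to 10 in MLL4 KO ESCs, 11 to 13 in MLL4/LSD1 DKO, 12 to 13 in MLL4KO/LSD1CI, 0 to 1 in those labelled RCOR2 KO EB, 19 to 21 in RCOR1/2 DKO EBs, 13 to 14 in LSD1 KO EBs, 1 to 3 in LSD1 CI EBs, 2 to 5 for DOX in LSD1Res, 16 to 18 in LSD1 KO EBs with DMSO, 5 to 8 in LSD1 KO serum, 0 in LSD1 CI serum, 8 to 14 in LSD1 KO EpiLCs and 1 to 6 in LSD1 CI EpiLCs. For A485 it gave 9 to 10 in ESCs, 5 to 7 in EBs, 2 to 4 in serum and 6 to 8 in EpiLCs. A group left with 1 library is assumed to vary like the other groups of its fit. Groups of 2 libraries and members below 1 CPM limit precision.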
